A study of Mus musculus with 3 samples.

Results

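The sites described here lay in the gene deserts of the mouse genome and were called, without a control, in libraries made with a Foxp3 antibody. Each was a peak of replicate 2 on chromosomes 1 to 19 or X that overlapped a replicate 1 peak by at least 50% of both lengths, with its replicate 2 summit outside every protein-coding gene and over 50 kb from the nearest end of one. They numbered 5599 of 31111 shared sites, or 18% (95% exact binomial interval 17.6 to 18.4%). Of the 20084 replicate 2 peaks in such places, 27.9% were shared, beside 34.1% of the 74735 replicate 2 peaks elsewhere and 32.8% of all replicate 2 peaks. Seen from replicate 1, 4.16% of its peaks in such places were shared, beside 6.06% of those elsewhere and 5.6% of all. The sites were chosen by the overlap of the called peaks of both replicates and by distance to genes, so these shares are descriptions and carry no test. The sites were far from protein-coding genes, but not from every annotated gene: 2058 of them, or 36.8%, had no gene of any kind within 50 kb.

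The libraries came from mouse bone marrow-derived macrophages, phagocytes differentiated in culture from marrow precursors, here in RPMI1640 conditioned with the growth factor M-CSF and lightly fixed with 0.1% formaldehyde. CUT&RUN was used, in which an antibody tethers a nuclease to its target in permeabilised cells and the released DNA is sequenced. There were 2 libraries made with the Foxp3 antibody FJK-16s, numbered replicates 1 and 2, and 1 library made with an IgG isotype, which was not analysed here. The series title names stimulation with molecules released by damaged brain tissue, but the labels give no stimulus, genotype or strain for any library and do not say whether the replicates were separate cultures, so differences between them may be technical.

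Foxp3 is a transcription factor of the forkhead family, known above all as the lineage regulator of regulatory T cells. Sequence far from protein-coding genes holds distal enhancers that act on genes across long distances, genes for long non-coding and small RNAs, and tandem repeats. Enhancers of developmental regulators in particular often lie in large gene deserts.

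Sequences at these sites are shown first where an annotated RNA gene coincided with a site. A gene of the small RNA group lay within 1 kb of 49 summits (0.875%), beside 0.608% of unshared replicate 2 desert peaks and 0.302% of the territory. The group takes in genes labelled miscellaneous RNA, which are not all short and were at 6 of the 49 sites. MicroRNA genes were at 7 of the 49. The mature sequences of Mir137 and Mir129-2 follow because a summit lay within 100 bp of each gene. The capitals mark the seed, bases 2 to 8, by which a microRNA recognises its targets. Sequences are those of RefSeq on GRCm38.p6, and no seed is shared among them.
mmu-miR-137-5p: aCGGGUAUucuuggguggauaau
mmu-miR-137-3p: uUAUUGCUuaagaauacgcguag
mmu-miR-129-5p: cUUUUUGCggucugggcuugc
mmu-miR-129-2-3p: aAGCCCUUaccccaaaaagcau

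The promoters of 5 long non-coding RNA (lncRNA) genes follow, out of 28 with a replicate 2 summit inside the promoter window. The window runs from 250 bases before the annotated start to 50 after it, on the strand of the gene. Capitals mark CpG dinucleotides, a feature in which promoters with a site differed from those without. The 5 were picked after their values were seen, and none has fewer CpGs than the median of 12 over the 28. Gm31676, whose window also holds both summits of its site, has 11 and is not printed, so the 5 do not stand for the 28. The windows are Tunar at chr12:105336743-105337042 (plus strand), Jpx at chrX:103493308-103493607 (plus), Gm34507 at chr17:4908072-4908371 (plus), E130102H24Rik at chr4:101356199-101356498 (minus) and Gm41062 at chr13:112100672-112100971 (plus).
Tunar: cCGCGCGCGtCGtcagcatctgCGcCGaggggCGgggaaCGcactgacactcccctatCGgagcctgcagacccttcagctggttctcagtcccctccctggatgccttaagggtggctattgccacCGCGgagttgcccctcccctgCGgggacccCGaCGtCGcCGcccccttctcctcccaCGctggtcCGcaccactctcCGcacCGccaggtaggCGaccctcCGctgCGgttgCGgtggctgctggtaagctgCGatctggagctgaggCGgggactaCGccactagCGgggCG
Jpx: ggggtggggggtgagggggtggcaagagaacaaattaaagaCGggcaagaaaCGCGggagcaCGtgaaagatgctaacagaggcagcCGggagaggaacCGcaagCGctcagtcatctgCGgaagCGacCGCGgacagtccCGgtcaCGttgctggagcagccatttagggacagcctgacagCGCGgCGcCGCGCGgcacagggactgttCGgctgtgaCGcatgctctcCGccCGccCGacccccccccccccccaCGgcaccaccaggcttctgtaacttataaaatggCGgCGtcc
Gm34507: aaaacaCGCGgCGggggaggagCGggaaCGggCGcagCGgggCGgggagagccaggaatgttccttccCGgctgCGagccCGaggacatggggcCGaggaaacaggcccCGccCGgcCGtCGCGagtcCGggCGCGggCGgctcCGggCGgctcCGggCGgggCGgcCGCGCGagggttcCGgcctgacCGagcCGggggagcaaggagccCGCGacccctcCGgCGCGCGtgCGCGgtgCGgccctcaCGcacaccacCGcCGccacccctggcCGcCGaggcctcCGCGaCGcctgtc
E130102H24Rik: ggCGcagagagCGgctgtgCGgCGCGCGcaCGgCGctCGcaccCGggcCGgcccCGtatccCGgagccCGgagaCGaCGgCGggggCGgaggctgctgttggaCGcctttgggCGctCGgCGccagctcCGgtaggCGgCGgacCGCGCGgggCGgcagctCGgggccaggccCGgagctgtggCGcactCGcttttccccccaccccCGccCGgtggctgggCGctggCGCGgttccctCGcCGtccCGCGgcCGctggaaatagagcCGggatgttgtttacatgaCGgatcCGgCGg
Gm41062: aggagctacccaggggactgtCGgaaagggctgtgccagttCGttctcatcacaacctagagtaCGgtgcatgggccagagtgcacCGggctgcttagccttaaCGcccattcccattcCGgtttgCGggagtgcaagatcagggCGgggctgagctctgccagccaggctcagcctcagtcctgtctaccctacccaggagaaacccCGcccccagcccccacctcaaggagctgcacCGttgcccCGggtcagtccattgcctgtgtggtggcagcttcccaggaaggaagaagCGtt

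The desert sites were spread thinly over a large territory. Positions over 50 kb from protein-coding genes made up 915 Mb of the 2571 Mb spanned by the chromosomes, or 35.6%, and held 6.12 shared sites per Mb. Intergenic sequence up to 50 kb from a gene held 10.0 shared sites per Mb. In strength, measured as fold enrichment, the desert sites were not the weakest of the shared sites. The strength given here is the deposited fold enrichment, the fragment pileup at the summit over a background estimated from the same library. Over the desert sites its median was 8.90 in replicate 1 (quartiles 6.08 and 12.4) and 4.71 in replicate 2 (3.93 and 5.69). Shared intergenic sites up to 50 kb from a gene had medians of 7.84 and 4.32 in replicates 1 and 2, and sites inside genes had 7.58 and 4.32. Sites within 1 kb of a gene end stood higher, with medians of 11.8 and 5.59. Peaks in the deserts that were not shared had medians of 4.76 in replicate 1 and 3.73 in replicate 2, both lower than those of the shared sites. Because a peak must be strong enough to be called in both libraries to count as shared, that last difference is built into the choice of sites. By summit pileup the order of the classes differed. Desert sites had medians of 36 fragments in replicate 1 and 23 in replicate 2, near the 35 and 23 of intergenic sites up to 50 kb from a gene. Sites inside genes had 41 and 25, and sites within 1 kb of a gene end had 71 and 35.

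**Figure D1:**
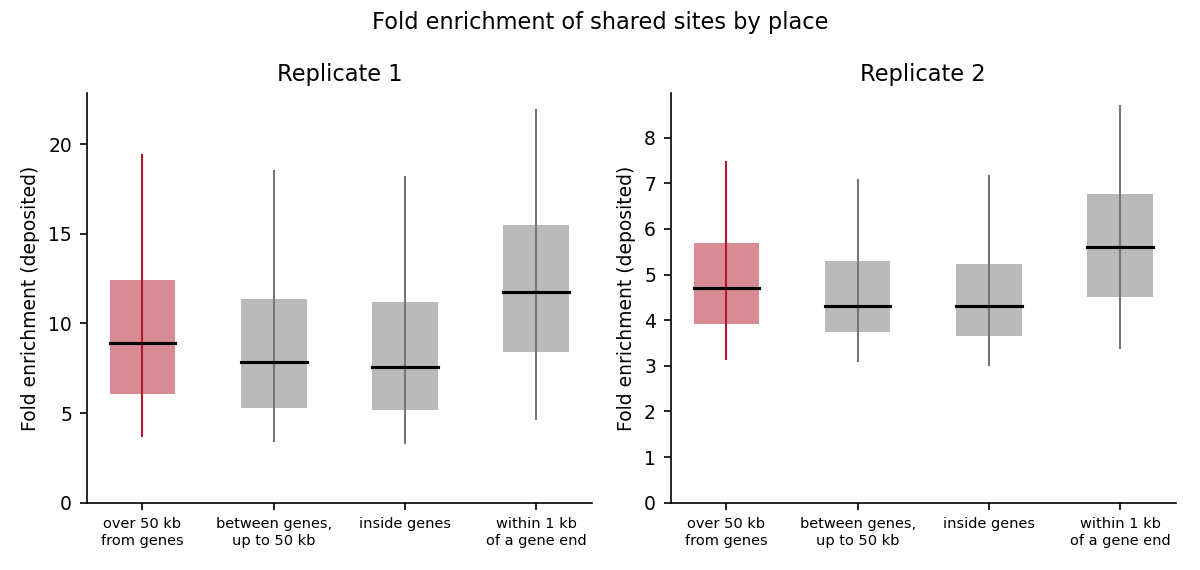
Deposited fold enrichment of shared sites in replicate 1 (left) and replicate 2 (right) by the place of the replicate 2 summit. Boxes span the quartiles, black lines are medians and thin lines run between the 5th and 95th percentiles; desert sites (red, medians 8.90 and 4.71) sit between the sites at gene ends and the other 2 classes.

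Fold enrichment was higher in replicate 1 at most shared sites, in deserts and elsewhere alike. Replicate 1 had the higher value at 5039 of the 5599 desert sites (90.0%) and replicate 2 at 560, and replicate 1 had it at 22964 of the 25512 other shared sites (90.0%). Summits of replicate 1 had a median pileup of 36 fragments and those of replicate 2 of 23, with median peak lengths of 318 and 286 bp. Across the sites, which share the same 2 libraries and are not independent, Spearman's rho of the fold enrichment was 0.414. The summits of the replicates lay a median of 64 bp apart, and 42.2% were within 50 bp of each other. Peaks of at least 1000 bp in both lists made up 175 of the 5599 desert sites and 621 of the 25512 other shared sites.

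**Figure D2:**
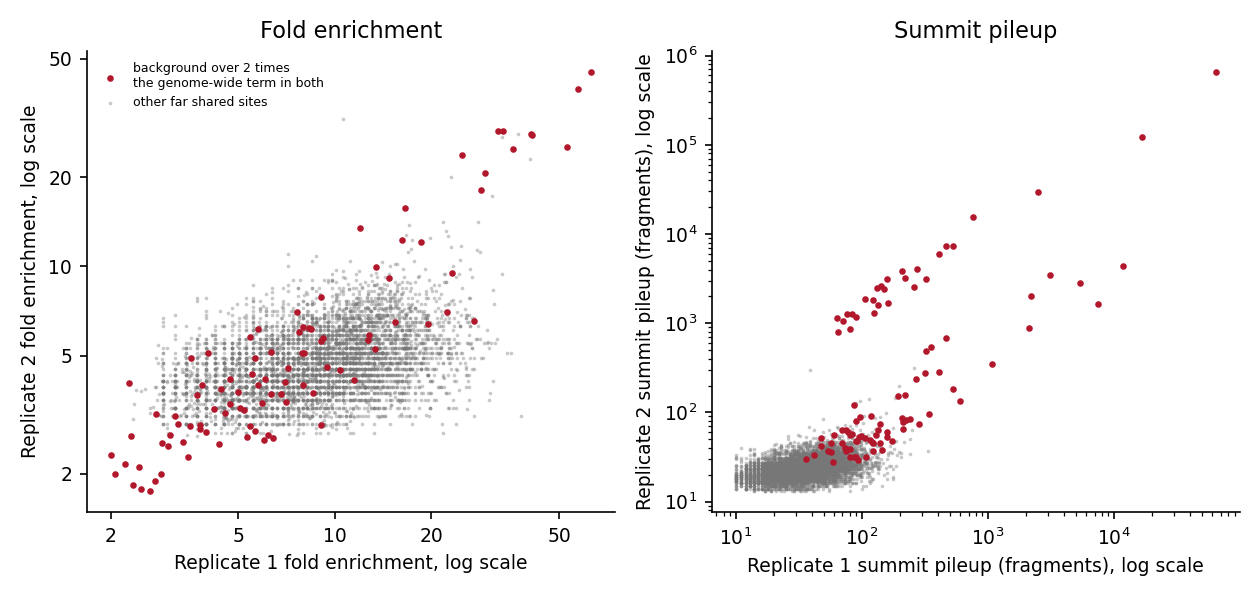
Fold enrichment (left) and summit pileup in fragments (right) of the 5599 desert sites in replicate 1 (horizontal) and replicate 2 (vertical), on log axes. Each point is 1 site, and the 96 sites whose background term was over 2 times the genome-wide term in both libraries (red) hold most of the extreme values.

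The median distance to the nearest protein-coding gene end was 166 kb, with quartiles of 87.9 and 341 kb, and 261 sites lay over 1000 kb away. Site density fell with each step of distance. It was 8.29 shared sites per Mb between 50 and 100 kb, 6.75 between 100 and 250 kb, 5.21 between 250 and 500 kb, 4.22 between 500 and 1000 kb, and 3.85 beyond 1000 kb. The density of all replicate 2 peaks fell along the same bins, with 30.5 per Mb between 50 and 100 kb and 11.98 per Mb beyond 1000 kb. The share of replicate 2 peaks that were shared ran the other way, at 27.2% (interval 26.1 to 28.4%) between 50 and 100 kb and 32.1% (28.9 to 35.5%) beyond 1000 kb. Median fold enrichment was also higher in the remote bins, at 8.50 in replicate 1 and 4.52 in replicate 2 between 50 and 100 kb and 10.3 and 4.91 beyond 1000 kb.

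**Figure D3:**
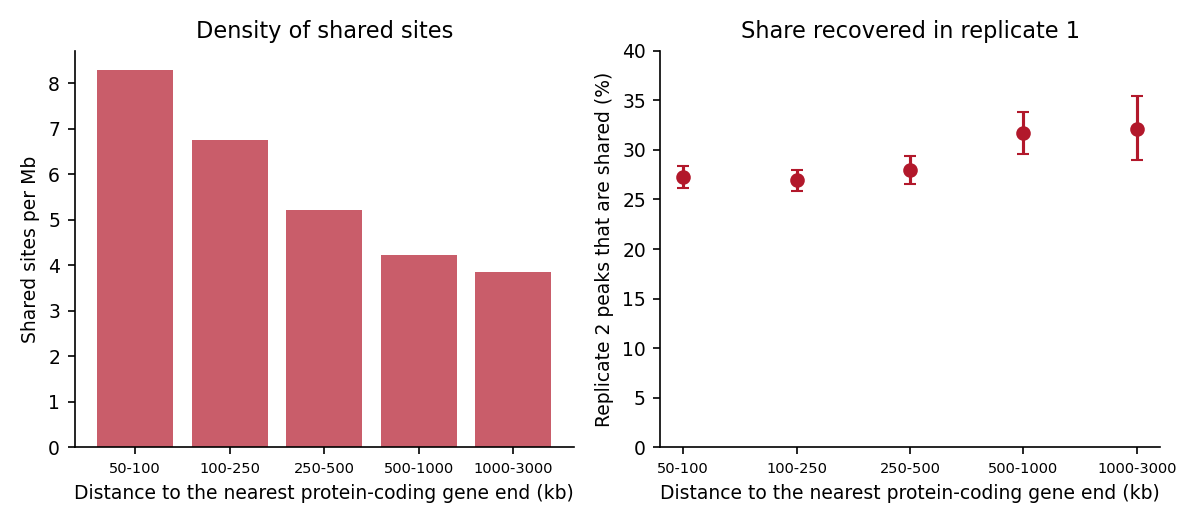
Shared sites per Mb (left) and percent of replicate 2 peaks that were shared, with 95% exact binomial intervals (right), in 5 bins of distance to the nearest protein-coding gene end in kb. Density was 8.29 per Mb in the nearest bin and 3.85 in the remotest, while the shared percent was 27.2 and 32.1.

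Of the 5 remotest sites, all but chr14:82290859 had a fold enrichment between the quartiles of all desert sites in at least 1 library. The remotest of all, at chr14:90689127 between the protocadherin genes Pcdh20 and Pcdh9, which encode neuronal adhesion molecules, was 2218 kb from a gene end and had fold enrichments of 5.29 in replicate 1 and 4.52 in replicate 2. Next came chr14:82290859 between Olfm4 and Pcdh17, at 2153 kb, with 22.5 in replicate 1 and 3.34 in replicate 2. The site at chr1:102628240 between Cntnap5b and Cdh20, at 2138 kb, had 8.73 and 10.8 and was among the 560 sites with the higher fold in replicate 2. A pair more between Olfm4 and Pcdh17 completed the 5 remotest, at chr14:82153699 (2131 kb) and chr14:82096506 (2073 kb). At the inner limit, the nearest members were chr12:23684890 at 50.045 kb (fold enrichments 15.3 and 5.64), chr14:55167014 at 50.1 kb (13.7 and 5.50) and chr6:39256853 at 50.1 kb (13.5 and 5.33). The shared sites just short of it were chr7:32559227 and chr7:113007367, both at 49.9 kb (13.2 and 3.73, and 5.05 and 3.14), and chrX:76652819 at 49.9 kb (3.44 and 5.69).

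Every chromosome examined carried desert sites, at similar densities. Density ranged between 4.91 per Mb on chromosomes 10 and 14 and 7.65 per Mb on chromosome 4, with a median of 6.07. Chromosome X had 518 sites at 6.87 per Mb. Its replicate 2 desert peaks were shared most often, at 35.0%, where the other chromosomes ranged between 24.5% on chromosome 13 and 31.7% on chromosome 16. No test of chromosome X was made, since the overlap itself chose the sites.

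**Figure D4:**
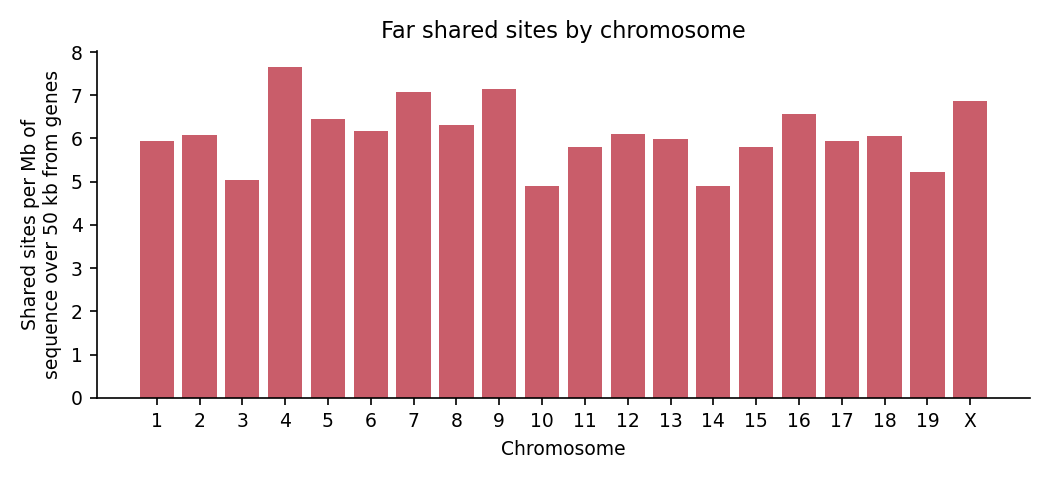
Desert sites per Mb of sequence over 50 kb from protein-coding genes, for each of the 19 autosomes and X. All bars lie between 4.91 (chromosomes 10 and 14) and 7.65 (chromosome 4).

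The strongest desert sites lay mostly near chromosome ends and in sequence of high background. The 15 sites with the highest mean percentile of fold enrichment had values of 28.0 to 62.8 in replicate 1 and 14.1 to 45.3 in replicate 2. Of these, 9 had a protein-coding gene on 1 side only, because they lay beyond the outermost gene of a chromosome, beside 87 of all 5599 sites (1.55%). The background term exceeded 2 times its genome-wide value in both libraries at 10 of the 15, beside 96 of all sites (1.71%). The part of the raised background in these values was not tested.

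The site ranked highest was chr12:3109968, 137 kb before Rab10, a gene for a vesicle-traffic GTPase. It was enriched 62.8-fold in replicate 1 and 45.3-fold in replicate 2 (54.0 ± 12.4, SD, n = 2), on pileups of 16623 and 121481 fragments. Its background stood 70.1 and 527 times over the genome-wide term. The next, chr1:195241724, lay 64.8 kb beyond the complement receptor gene Cr2 and had fold enrichments of 57.2 and 39.5 on pileups of 2108 and 875. Before the odorant receptor gene Olfr161, at the start of its chromosome, the site chr16:3115127 had 52.8 and 25.2.

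Within deserts bounded by genes on both sides, chr3:5860654 between Pex2 and 1700008P02Rik had fold enrichments of 41.0 and 28.0, and chr3:62159320 between Rap2b and Arhgef26 had 41.2 and 27.8. The site chr11:109011873, 61.1 kb from the Wnt pathway inhibitor gene Axin2, had 33.5 and 28.6 and lay in the lncRNA gene Gm36876. At chr18:68692194, in the lncRNA gene Gm30821 between Mc2r and Tcf4, the values were 37.3 and 27.9. Sites as strong as these without a raised background in both libraries were few among the 15. They were that site, chr16:98107650 beyond B230307C23Rik (40.5 and 23.1), chr2:3050255 before Fam171a1 (33.2 and 27.2), chr18:85698166 between Fbxo15 and Neto1 (30.9 and 17.3) and chr14:124801696 beyond Fgf14 (28.0 and 14.1). At chr18:85698166 the background was 1.10 times the genome-wide term in replicate 1 and 1.00 times in replicate 2. The remaining members of the 15 were chr6:3201499, chr2:98667157, chr18:3005838 and chr13:3373199, all with raised background in both libraries. The next sites by replicate 2 alone included chr14:104715890 between Obi1 and Rbm26 (24.95 and 23.7) and chr1:195371863, the second strong site beyond Cr2 (21.7 and 14.1). Of all 5599 sites, 43 had a fold enrichment of at least 10 in both.

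A few sites held a large share of the fragments. The 10 sites with the largest pileups carried 32.5% of all summit fragments of the desert sites in replicate 1 and 81.9% in replicate 2. One of them, chr2:98667157 between Lrrc4c and Iftap, had 63908 fragments at its summit in replicate 1 and 659544 in replicate 2, or 62.9% of the replicate 2 sum. Its fold enrichment was 35.9 and 24.9, over a background of 470 and 5206 times the genome-wide term. On chromosome 17, the site chr17:39846665 on a ribosomal RNA pseudogene had pileups of 11752 and 4328 and fold enrichments of only 5.64 and 2.78. Most desert sites had a low background. It stood at its genome-wide value at 63.8% of sites in replicate 1 and 78.0% in replicate 2. In the other shared sites those shares were 25.1% and 38.8%. Leaving out the 96 sites gave a rho of 0.400 in place of 0.414.

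The start of the assembled chromosomes was also dense in desert sites. The mouse assembly begins at 3 Mb, after the centromere, whose flanks hold satellite repeats. Its first Mb held 95 desert sites on 17 chromosomes, at 15.3 per Mb of desert. They were unevenly spread: 28 lay before Alkbh8 on chromosome 9, 25 of them in 1 run, and 12 before Olfr161 on chromosome 16. Of the 95, 33 had a background over 2 times the genome-wide term in both libraries. The median fold enrichments of the 95, 7.42 in replicate 1 and 4.71 in replicate 2, were not above those of all desert sites.

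Deserts differed in the number of sites they held. Deserts were gaps of over 100 kb between protein-coding genes, or of over 50 kb at a chromosome end. Of 2772 deserts, 1655 (59.7%) held at least 1 site, and 579 held exactly 1. All 268 that were at least 1 Mb long had at least 1, with a median of 7, and together had 2036 of the sites (36.4%). The longest, 4542 kb between Pcdh20 and Pcdh9, had 14. Among the deserts with many sites were those between Rragc and Pou3f1 with 19 sites at 30.6 per Mb, between Auts2 and Castor2 with 21 at 14.4 per Mb, and between 9530057J20Rik and Gm15319 with 19 at 62.8 per Mb.

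The spacing of the sites is given as a description, since sites scattered at this density would also have neighbours and no value for scattered sites was computed. With neighbours up to 50 kb apart joined, 2560 sites (45.7%, interval 44.4 to 47.0%) had another desert site near them, and 3039 stood alone. Runs of at least 5 sites numbered 52. The run with the most sites lay at the start of chromosome 9, where 25 fell within 37.5 kb between chr9:3000508 and chr9:3037999. There the pileups were 64 to 762 in replicate 1 and 792 to 15510 in replicate 2, and the median background was 8.66 and 115 times the genome-wide term. Fold enrichments in that run were nonetheless low, with medians of 4.35 and 3.2.

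A run of 15 sites lay in the imprinted interval between Ube3a, which encodes a ubiquitin ligase, and Snurf, between chr7:59726415 and chr7:59794306. That interval holds tandem arrays of small nucleolar RNA genes, which guide RNA modification. Of the 27 desert sites within 1 kb of such a gene, 17 were in this interval, with fold enrichments of 3.02 to 10.8 in replicate 1 and 2.47 to 9.16 in replicate 2. The strongest of the interval by both replicates was chr7:59779014, 236 bp from Gm25157, with 10.8 and 9.16. The background of the run was 3.56 times the genome-wide term in replicate 1 and 2.04 times in replicate 2. Repeated copies can share reads, and no source used here says how the authors' alignment placed such reads.

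The other 10 sites at small nucleolar RNA genes were spread over 7 chromosomes. Among the next runs, 15 sites lay between chr8:20010400 and chr8:20154434, with backgrounds of 2.27 and 2.14 times the genome-wide term. A run of 10 sites between Gm6569 and Adgrb1 on chromosome 15 had lower backgrounds, of 1.36 and 1.13 times, and fold medians of 4.80 and 3.75. On chromosome 8, a run of 9 sites between Tex29 and A230072I06Rik had fold medians of 6.34 and 4.12.

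The rearranging antigen receptor loci, which rearrange in developing lymphocytes and whose gene segments are not counted as protein-coding genes here, held desert sites as well. There were 26 in the immunoglobulin kappa locus, 19 in the T cell receptor alpha and delta locus at 11.9 per Mb of desert, and 13 in the immunoglobulin heavy chain locus at 5.03 per Mb. The lambda locus had 1, and the T cell receptor beta and gamma loci had none, on 0.167 and 0.104 Mb of desert. In the alpha and delta locus, 4 summits lay on an annotated gene segment. One kappa site, chr6:69516474, was among the sites enriched more in replicate 2. It was enriched 10.6-fold in replicate 1 and 31.5-fold in replicate 2, on pileups of 39 and 300 fragments.

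MicroRNA genes near a site included several best known from neurons. Mir137 had a pair of sites. One, chr3:118433942, lay 13 bp from the gene with fold enrichments of 14.4 in replicate 1 and 3.73 in replicate 2, and the other, chr3:118434500, lay 571 bp away with 16.1 and 4.12. Both were far more enriched in replicate 1. The site chr2:94241552 lay 99 bp from Mir129-2, which overlaps Mir129b on the opposite strand, and had 10.4 and 4.90. At Mir124a-2 the site chr3:17794872 was 790 bp from the gene with 11.6 and 7.46, the highest replicate 2 value of the microRNA sites. Mir133a-2, a muscle microRNA in mouse, had a weak site 613 bp away with 5.16 and 2.85. The site 670 bp from Mir101c belonged to the run at the start of chromosome 9.

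Non-coding genes were met more often than their share of the territory. The summit lay inside an lncRNA gene at 744 sites (13.3%, interval 12.4 to 14.2%), beside 15.2% of the unshared replicate 2 desert peaks, where such genes cover 11.0% of the territory. Pseudogenes held 175 summits (3.13%, interval 2.69 to 3.62%), beside 2.51% of unshared peaks and 1.30% of the territory. Any non-coding gene lay within 1 kb of 1113 sites (19.9%), beside 20.6% of unshared peaks and 14.6% of the territory. The lncRNA share of the desert sites was thus below that of the unshared peaks, and the pseudogene share above it. Sites at a non-coding gene had median fold enrichments of 8.46 in replicate 1 and 4.52 in replicate 2, against 8.99 and 4.71 for the 4486 without one.

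Summits were concentrated at the starts of lncRNA genes. Around the 3367 annotated lncRNA starts of 2797 genes in desert sequence, chromosome 18 not included, summit density was 5.34 times the desert mean in the 200 bp before the start and 5.82 times in the 200 bp after it. For all replicate 2 desert peaks the same ratios were 3.72 and 3.79. Between 1 and 4 kb on either side the density of the sites was between 0 and 2.18 times the desert mean. Few genes were involved: 144 starts of 122 genes (4.36% of genes) had a site within 1 kb. Inside the promoter window, 26 sites met 28 genes. With a site counted once for each start it met, this was 27.6 per Mb of window, against 6.12 per Mb in the deserts. The median fold enrichments of the 26 sites were 10.4 and 4.81, against 8.89 and 4.71 for the other sites. In 16 of the 26 the summits of both replicates were in the window.

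**Figure D5:**
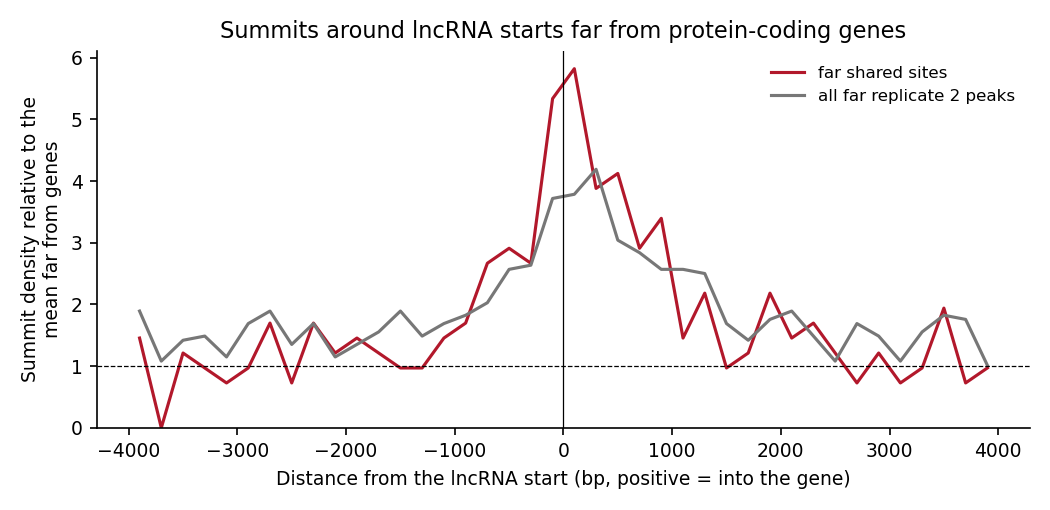
Density of summits in 200 bp bins around lncRNA starts in desert sequence, relative to the mean desert density (dashed line at 1), for desert sites (red) and for all replicate 2 desert peaks (grey). Negative distances lie before the start; the red line reaches 5.34 and 5.82 in the bins on either side of the start.

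Promoters with a site were rich in CpG dinucleotides. The 28 promoters had a median of 12 CpGs per 300 bases and a GC content of 60.5%, against 3 CpGs and 45.7% in the 3339 desert lncRNA promoters without a site. Over all 32619 promoters of the table the medians were 7 CpGs and 53%. The printed promoters ranged widely, and by the way they were picked none was below the median of the 28. They had 49 CpGs in Gm34507, 47 in E130102H24Rik, 30 in Tunar, 27 in Jpx and 12 in Gm41062. Gm31676, which was not printed, had 11. The part of base composition in these densities was not tested.

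Tunar, an lncRNA gene known from mouse embryonic stem cells, had a site with fold enrichments of 13.3 in replicate 1 and 6.48 in replicate 2. Its summits fell at bases 121 and 243 of the printed window. Jpx, an lncRNA gene of the X-inactivation centre that promotes Xist expression, had 16.8 and 4.91, and its replicate 1 summit lay 190 bp after the start, outside the window. Gm34507 had 12.9 and 6.004 with summits at bases 233 and 218, E130102H24Rik had 9.26 and 6.87, and Gm41062 had 10.8 and 5.64. The highest values at a promoter were at LOC115490388 in replicate 1, with 19.6, and at Gm39101 in replicate 2, with 7.46. The site of Gm31676, with 19.04 and 5.69, also fell in the promoter of LOC115487949, which starts nearby on the opposite strand.

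The forkhead word TGTTTNC, searched on both strands, was in 7 of the 28 promoters with a site (25%), against 27.1% of the desert lncRNA promoters without and 20.6% of all promoters. Among those printed, it occurs at bases 278 to 284 of E130102H24Rik and, on the opposite strand, at bases 98 to 104 of Gm34507. The word GGAAGT, a core of sites for the macrophage factor PU.1, was in 10.7% of promoters with a site, against 22.3% without and 23.9% of all. The AP-1 word TGANTCA was in 0 of the 28, against 11.3% without and 7.85% of all. With 28 promoters these shares are descriptions only, and a word is not a bound site. No genome sequence was used, so the words could not be counted at the desert sites away from promoters.

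The deserts beside macrophage regulators held 69 of the sites (1.23%), beside 1.61% of unshared replicate 2 desert peaks and 1.09% of desert length. Of the 20 genes listed, 16 bordered a desert and 11 of these had a site. The share over all genes at a desert was not computed, for this list or those below. Of all deserts, 59.7% held a site, and so did all 268 of at least 1 Mb. The proto-oncogene Myc had 14, between 147 and 1681 kb away, with fold enrichments of 5.03 to 23.5 in replicate 1 and 3.34 to 7.26 in replicate 2. The strongest in replicate 1 was 238 kb beyond the gene, with 23.5 and 6.68, and the strongest in replicate 2 was chr15:63425681, 1435 kb beyond, with 17.7 and 7.26. Irf8, which directs monocyte and macrophage development, had 7 sites in the desert it shares with Foxf1, the nearest 50.6 kb away. The strongest of these, chr8:120872711 at 116 kb, had 11.4 and 5.33.

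Runx1, a regulator of blood cell formation, had 7 sites with up to 20.7 in replicate 1 and 5.69 in replicate 2, where each highest value is that of its replicate and not always of the same site. The Krüppel-like factor genes Klf4 and Klf6 had 6 each, with up to 16.4 and 7.17 for Klf4 and 16.9 and 6.48 for Klf6. Jun, an AP-1 subunit gene, had 4 with up to 13.9 and 7.62, the highest replicate 2 value of this list. Ets2 had 5 sites with up to 20.2 and 5.87, Id2 had 7, Nr4a3 had 5 and Maf had 3. The 5 sites beyond Cebpb, a factor of inflammatory gene expression, were weak in replicate 2, at 2.78 to 3.83. One of them lay in the promoter of the lncRNA gene Gm32287, 87.3 kb from Cebpb, with 6.31 and 2.78.

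Genes of phagocytosis, autophagy and the lysosome bordered deserts with 17 sites (0.304%), beside 0.0967% of unshared peaks and 0.154% of desert length. A single run made up 8 of the 17: it lay 60.5 to 99.6 kb from Atg7, the enzyme that starts the autophagy conjugation systems, on the side of Hrh1. Its fold enrichments were 3.70 to 7.06 in replicate 1 and 2.64 to 4.92 in replicate 2, and its background was 4.08 and 2.42 times the genome-wide term. Msr1, a scavenger receptor gene, had 5 sites, of which chr8:39247200 had 9.79 and 8.44. Elmo1, whose product helps activate Rac during engulfment, had 2 with up to 6.52 and 4.46. The scavenger receptor gene Marco also had 2, the nearer at 50.4 kb with 5.03 and 4.45.

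Inflammatory genes bordered few such sites. They had 7 (0.125%), beside 0.331% of unshared peaks and 0.197% of desert length. The strongest was chr13:43864745, 61.6 kb from Cd83, a surface marker of activated dendritic cells, with 30.1 in replicate 1 and 5.57 in replicate 2. This was the largest gap between the replicates among the genes of the short lists. Il12b, which encodes a subunit of interleukin 12 and 23, had 2, with up to 11.4 and 5.69.

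Genes known from regulatory T cells had 15 sites (0.268%), beside 0.173% of unshared peaks and 0.237% of desert length. Ikzf2, which encodes the factor Helios, had 3 with fold enrichments of 7.41 to 14.3 in replicate 1 and 5.87 to 8.73 in replicate 2. Nt5e, the gene of the ectoenzyme CD73, had 5 with up to 13.5 and 6.48. Satb1, a chromatin organiser gene, had 6, with up to 19.6 and 5.89, and Bach2 had 1, with 4.47 and 2.95. The counts of these lists are small, and their shares stood on either side of the share of desert length.

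The lists of developmental transcription factors and neural adhesion genes are longer, with 46 and 74 genes, and had more sites. The developmental factors had 226 sites (4.04%), beside 4.79% of unshared peaks and 4.15% of desert length, and 36 of the 41 that border a desert had at least 1. Ranked by mean percentile, the homeobox gene Meis2 had the strongest, chr2:116156305 at 88.8 kb, with 24.3 and 9.42, and Meis1 had 14 sites with up to 26.7 and 9.23. Pou3f2 had 15 with up to 24.6 and 10.2, Sox2 had 12 with up to 21.5 and 7.79, and Gata6 had 10 with up to 22.3 and 10.3.

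The neural adhesion and synapse genes had 613 sites (10.9%), beside 9.60% of unshared peaks but 16.1% of desert length. Their deserts were thinly filled, at 4.16 sites per Mb against 6.12 in all. These deserts include the longest, and over all desert sites the density was 4.22 per Mb between 500 and 1000 kb from a gene. The part of distance in the lower density was not tested. Of the 70 genes that border a desert, 65 had a site, but all 268 deserts of at least 1 Mb held a site whatever their genes. The strongest by the same ranking was chr8:15519953, 373 kb from Csmd1, with 23.01 and 20.04, and Csmd1 had 17 sites in all. Pcdh7, a protocadherin gene, had 28 with up to 19.04 and 7.97. Chemosensory receptor genes had 57 sites (1.02%), beside 0.690% of unshared peaks and 0.919% of desert length, and 35 of the 106 genes at a desert had a site. Of these 57, 12 lay before Olfr161 on chromosome 16.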

How the data were processed

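CUT&RUN peak lists of 2 Foxp3 libraries from mouse bone marrow-derived macrophages were used, 1 list per library, each treated as 1 replicate. The submitters' processing notes name CASAVA 1.4 and the genome build mm10, and no source used here names the aligner. Per the file headers, the authors called peaks with MACS 2.1.1.20160309 on each library separately, in paired-end mode, without a control library, at a q-value cutoff of 0.01 and with local background over 10000 bp. The authors deposited the pileup, a signal that counts the fragments covering a summit, unscaled for depth. The fold enrichment the authors deposited is a ratio of pileup plus 1 to a background term of the same library. Peak significance was deposited on the −log10 scale, for both the p-value and the q-value. Per the file headers, replicate 1 held 33294105 fragments and replicate 2 held 34898401; the smallest pileups listed were 10 and 13 fragments, so weaker sites could not appear. Without a control, sequence that yields fragments with any antibody can be listed.

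From these lists, 555534 peaks of replicate 1 and 94819 of replicate 2 on chromosomes 1 to 19 and X were paired by overlap. The background term was recovered as pileup plus 1 over fold enrichment and set against its genome-wide value, 3.78 fragments in replicate 1 and 5.09 in replicate 2. Places came from the RefSeq table of GRCm38.p6, whose coordinates on these chromosomes are those of mm10, with 21523 protein-coding genes; entries starting before 3 Mb, where the assembly has no sequence, were left out. That table has no strand, so lncRNA starts came from RefSeq promoter sequences of the same build, in which chromosome 18 is not included. No genome sequence was used, and the search for sequence words planned at all sites was made in lncRNA promoters instead, a choice made after seeing the data.

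The sites, gene lists and comparisons were chosen with earlier results of these data known. Intervals are exact Clopper-Pearson intervals at the 95% level, which cover only the error of counting. No test was run across sites, since overlap of the replicates chose them and no value of a control library was used. Sites named in the text are the 15 with the highest mean percentile of fold enrichment within each list. Also named are 5 more with the largest replicate 2 fold, the 5 remotest and the 5 runs with the most sites. Named too are 3 on each side of the distance limit and the strongest beside the genes of each list. Other sites named, among them those at microRNAs, promoters and receptor loci, were picked after their values were seen. The sites of 1 gene desert are not reported as such here. Pairing, placing and joining of runs were checked on simulated peaks. Python 3.11.15, pandas 2.3.3, NumPy 2.4.6, SciPy 1.17.1 and Matplotlib 3.10.9 were used.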

Additional observations from a re-analysis of the deposited data

How the results depend on the processing

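The number of desert sites changed with how sites were matched and with which genes set the distance. It was 8923 with any overlap of at least 1 bp, 1784 with an overlap of at least 80%, 3214 when only the strongest replicate 1 peaks in the number of replicate 2 were used, and 2058 when all annotated genes set the distance; the density per Mb was 9.75, 1.95 and 3.51 under the first 3 of these. The share of shared sites that lay in deserts was 19.6% with 80% overlap, 25.4% with a limit of 20 kb, 12.6% with 100 kb, 17.2% with a −log10 q of at least 5 and 6.62% with all annotated genes. The share of replicate 2 desert peaks that were shared was 44.4% with 1 bp, 8.88% with 80%, 36.4% with the stricter q, 30.5% with all annotated genes and 16.0% with the strongest replicate 1 peaks. The share of sites with another within 50 kb was 62.2%, 19.4%, 48.6%, 42.3%, 36.1%, 36.3% and 27.2% for 1 bp, 80%, 20 kb, 100 kb, the stricter q, all genes and the strongest peaks. The share at a non-coding gene was 18.2% with 80%, 21.95% with 20 kb, 17.3% with 100 kb, 18.7% with the strongest peaks and 0% with all annotated genes, by construction. Spearman's rho was 0.488 with 80%, 0.353 with the stricter q and 0.234 with the strongest peaks. The mean of the replicates' median fold enrichments was 6.81 ± 2.96 (SD, n = 2). It was 5.99 with 1 bp, 7.85 with 80% and 8.47 with the strongest peaks. The median over all desert peaks of 1 list was 4.76 in replicate 1 and 3.93 in replicate 2. Each of the 11 alternatives moved it by less than that SD. The SD is only the gap between 2 libraries, so this is a wide limit and does not show that the value is stable. Placing sites by the replicate 1 summit or leaving out pileups of at least 1000 moved no result past its interval. Leaving out the 96 sites of high background, chosen after seeing the data, left 5503 sites, with 44.7% of them near another.

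With 1 replicate alone, the desert peaks numbered 20084 to 134434, their share of peaks was 21.2 to 24.2%, their density 21.95 to 147 per Mb, and 85.1 to 99.9% had another within 50 kb, the lower values being those of replicate 2. The replicate 1 list is longer at a similar depth, and the cause was not tested. No paired analysis was possible because only 1 group has numbered replicates and the results come from no test. Peaks under 10 and 13 fragments at the summit are not listed, so a site missing from a list is not shown to be unbound.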
